A study of Mus musculus with 8 samples.

Results

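Lung epithelium was examined for 44 genes of DNA replication and mitosis, a list drawn by function but with earlier results of these data known. It runs from the minichromosome maintenance (MCM) helicase and the replicative polymerases to the mitotic kinases, the spindle checkpoint and the proliferation marker Mki67. Of these 44 genes, 41 were found in the deposited table of 13265 genes, and 40 had at least 30 unique molecular identifiers (UMIs, tags that mark separate captured mRNA molecules) over the 8 libraries and were tested among 12661 genes. Cdk1, Tpx2 and Cenpf were not analysed here, and Pole, the catalytic subunit of polymerase epsilon, was left untested at 26 UMIs. Epithelial cells had been sorted as EpCam+ CD31- CD45-, 10000 cells a sample, from wild-type (wt in the table) female C57BL6 mice of 10 to 14 weeks (the methods do not say at which point of the exposure). The 5 control mice inhaled aerosolized phosphate-buffered saline (PBS), and the 3 LPS mice inhaled PBS with Escherichia coli lipopolysaccharide at 0.5 mg/ml, a bacterial cell wall component used to model chronic lung inflammation. Sessions of 30 min were given 3 times a week for 10 weeks in both groups, and the lungs were taken 48 h after the last one. The libraries were made by a bulk form of MARS-seq, which counts the 3′ ends of polyadenylated RNA.

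The MCM hexamer, built from Mcm2 to Mcm7, is loaded onto origins before S phase. In S phase it unwinds DNA, while polymerases held by the PCNA ring copy the strands. Cyclin B with its kinase then starts mitosis, Aurora and Polo kinases build the spindle, and the Bub proteins hold back the anaphase-promoting complex until the chromosomes are attached. In the adult lung few epithelial cells divide at any time, and alveolar type II cells, the surfactant makers, are the main cells that re-enter the cycle after injury. Most replication genes are driven by E2F factors, and most mitotic genes by complexes that bind the CHR element together with NF-Y at CCAAT boxes.

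Promoter sequence was available for 35 of the 44 members, as RefSeq windows (GRCm38.p6, the assembly called mm10) from 250 bases before to 50 bases after each transcription start. Mcm4, Gins4, Pole, Rfc2, Ccna2, Aurkb, Tpx2, Stmn1 and Lmnb1 had no window. The letters searched on both strands were TTTCCCGC, TTTGGCGC, TTTCGCGC and TTTGGCGG for E2F, TTTGAA for the CHR and CCAAT for NF-Y, and a gene was counted if any of its windows held a match. E2F letters lay in the windows of 7 of 19 replication members (36.8%) and 2 of 16 mitotic members (12.5%), against 2.7% of the 27025 genes of the table. The CHR showed the opposite split, with 4 of 19 replication members (21.1%) and 11 of 16 mitotic members (68.8%) against 20.2% of all genes. A CCAAT box lay in 28 of 35 members (80%) and in 41.1% of all genes. Both the CHR and a CCAAT box were present in 11 of 16 mitotic members (68.8%), 3 of 19 replication members (15.8%) and 8.97% of all genes. These counts describe letters and not bound sites.

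Upstream stretches that no annotated exon covers are shown 5′ to 3′ on the strand of the gene for 3 helicase subunits described below and for the proliferation genes Mki67 and Top2a, so that the 2 promoter types can be read side by side. Capitals mark the E2F letters and CCAAT boxes of Mcm5 (chr8:75109259-75109467, plus strand) and Mcm6 (chr1:128359706-128359955, minus strand), and the CHR letters and CCAAT boxes of Mcm2 (chr6:88898781-88899030), Mki67 (chr7:135716451-135716629) and Top2a (chr11:99024200-99024439), which all lie on the minus strand. ATTGG is CCAAT and TTCAAA is TTTGAA read on the other strand.
Mcm5: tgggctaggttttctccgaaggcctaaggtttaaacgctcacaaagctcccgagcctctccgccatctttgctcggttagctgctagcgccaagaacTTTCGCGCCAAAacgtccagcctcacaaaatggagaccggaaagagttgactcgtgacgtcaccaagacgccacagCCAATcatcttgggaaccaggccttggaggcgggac
Mcm6: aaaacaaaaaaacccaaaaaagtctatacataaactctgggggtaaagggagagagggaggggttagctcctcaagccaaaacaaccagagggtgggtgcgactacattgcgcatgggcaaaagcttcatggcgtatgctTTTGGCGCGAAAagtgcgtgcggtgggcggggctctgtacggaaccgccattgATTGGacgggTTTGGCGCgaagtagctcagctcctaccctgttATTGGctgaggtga
Mcm2: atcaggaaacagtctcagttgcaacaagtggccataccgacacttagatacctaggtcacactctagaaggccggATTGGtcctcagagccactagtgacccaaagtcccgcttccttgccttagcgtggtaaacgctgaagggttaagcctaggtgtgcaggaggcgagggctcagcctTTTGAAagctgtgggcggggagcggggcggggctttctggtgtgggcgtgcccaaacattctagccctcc
Mki67: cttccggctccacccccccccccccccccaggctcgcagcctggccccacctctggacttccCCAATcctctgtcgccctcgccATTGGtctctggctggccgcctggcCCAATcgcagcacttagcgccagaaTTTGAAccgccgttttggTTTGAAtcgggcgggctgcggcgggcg
Top2a: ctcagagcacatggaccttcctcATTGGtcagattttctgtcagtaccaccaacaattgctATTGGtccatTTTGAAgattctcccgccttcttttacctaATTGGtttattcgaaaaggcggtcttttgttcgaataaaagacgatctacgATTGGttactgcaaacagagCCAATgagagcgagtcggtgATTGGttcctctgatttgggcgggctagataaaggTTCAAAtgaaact
In Mcm5 and Mcm6 a pair of E2F matches on opposite strands overlapped into 1 capital run of the form TTTCGCGCCAAA or TTTGGCGCGAAA. The Top2a stretch held 8 marked sites and the Mki67 stretch 5, whereas the Mcm2 stretch held 1 CHR and 1 CCAAT box.

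PBS libraries held 2232727 to 2890560 UMIs and LPS libraries 2739340 to 4445431, so that 3 UMIs in a library stood for 0.667 to 1.45 CPM (UMI counts scaled to library size, here with TMM factors). Libraries are named by the numbers in the table (s4, s14 and s18 are LPS libraries, and s1, s2, s6, s11 and s16 are PBS libraries), which are not the replicate numbers of the sample labels. No libraries of a group were identical, and the PBS pair s1 and s2 stood closest to each other (chi-square per degree of freedom 2.81, with the other pairs of a group up to 21.5). Epithelial markers took 0.255 to 0.340% of UMIs in PBS and 0.293 to 0.315% in LPS libraries, and alveolar type II markers took 13.2 to 16.5% and 10.9 to 11.6%. Within the PBS group s1 and s2 had the lowest type II shares (13.2% and 13.3%, the others 15.6 to 16.5%). Ciliated markers, of cells that do not divide, took 0.118 to 0.389% in PBS and 0.486 to 0.560% in LPS libraries. Of these genes, 10 of 10 were positive (list median log2 fold change 0.85) and 0 of 10 were called. Basal markers took at most 0.00728%, with 4 of 5 genes in the table, Trp63 absent and 0 of 3 tested genes positive or called. Fibroblast markers took 0.0336 to 0.0842% in PBS and 0.0216 to 0.0627% in LPS libraries, and 9 of 10 tested genes were negative (list median log2 fold change −0.77) while Fn1 was called higher. Endothelial markers took 0.0664 to 0.153% in PBS and 0.0678 to 0.150% in LPS libraries, with 0 of 12 genes called. Within the PBS group they were highest in s1 and s2 (0.149% and 0.153%). Pecam1, the gene of CD31, had means of 118 CPM in PBS and 124 CPM in LPS mice, beside 122 and 117 CPM for Epcam. Of the macrophage list, 26 of 28 genes were in the table and 14 were called higher. Without Lyz2, which type II cells also express, the list took 0.0543 to 0.0970% of UMIs in PBS and 0.159 to 0.301% in LPS libraries, and neither Fcgr1 nor Cd163 was found. The part of these shifts in the values below was not tested.

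The comparison of LPS with PBS mice asked whether chronic inflammation changed the replication and mitosis programme of the epithelium. Stmn1 was called lower in LPS mice, and no member was called higher. Across all genes, the edgeR quasi-likelihood test (Benjamini-Hochberg adjusted p under 0.05 and the minimum fold of the study's methods) called 2.03% of the genes, with 185 genes higher (1.46% of those tested) and 72 lower (0.569%). Among the 40 tested members it called 0 higher and 1 lower (2.5%). By limma-voom, which called 1.38% of all genes higher and 0.521% lower, the same 1 member was called. DESeq2 called 0 higher and 2 lower, Stmn1 and Mcm5, where it called 2.91% of all genes higher and 1.5% lower. Of the members, 33 of 40 (82.5%) had a negative log2 fold change, against 52.7% of all tested genes, and the median log2 fold change was −0.22 for the members and −0.02 for all genes. At an unadjusted p under 0.05, 7 members lay lower (17.5%, against 7.64% of all genes) and 2 higher (5%, against 10.4%). Every LPS library lay below every PBS library for 10 members (25%, against 5.86% of all genes) and above for 2 (5%, against 8.52%). Because the members were chosen with earlier results of these data known, these shares are descriptions and not tests. Leaving out LPS library s4 brought the members' median to −0.11. In bulk RNA, fewer dividing cells and less of these transcripts per cell cannot be told apart.

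**Figure D1:**
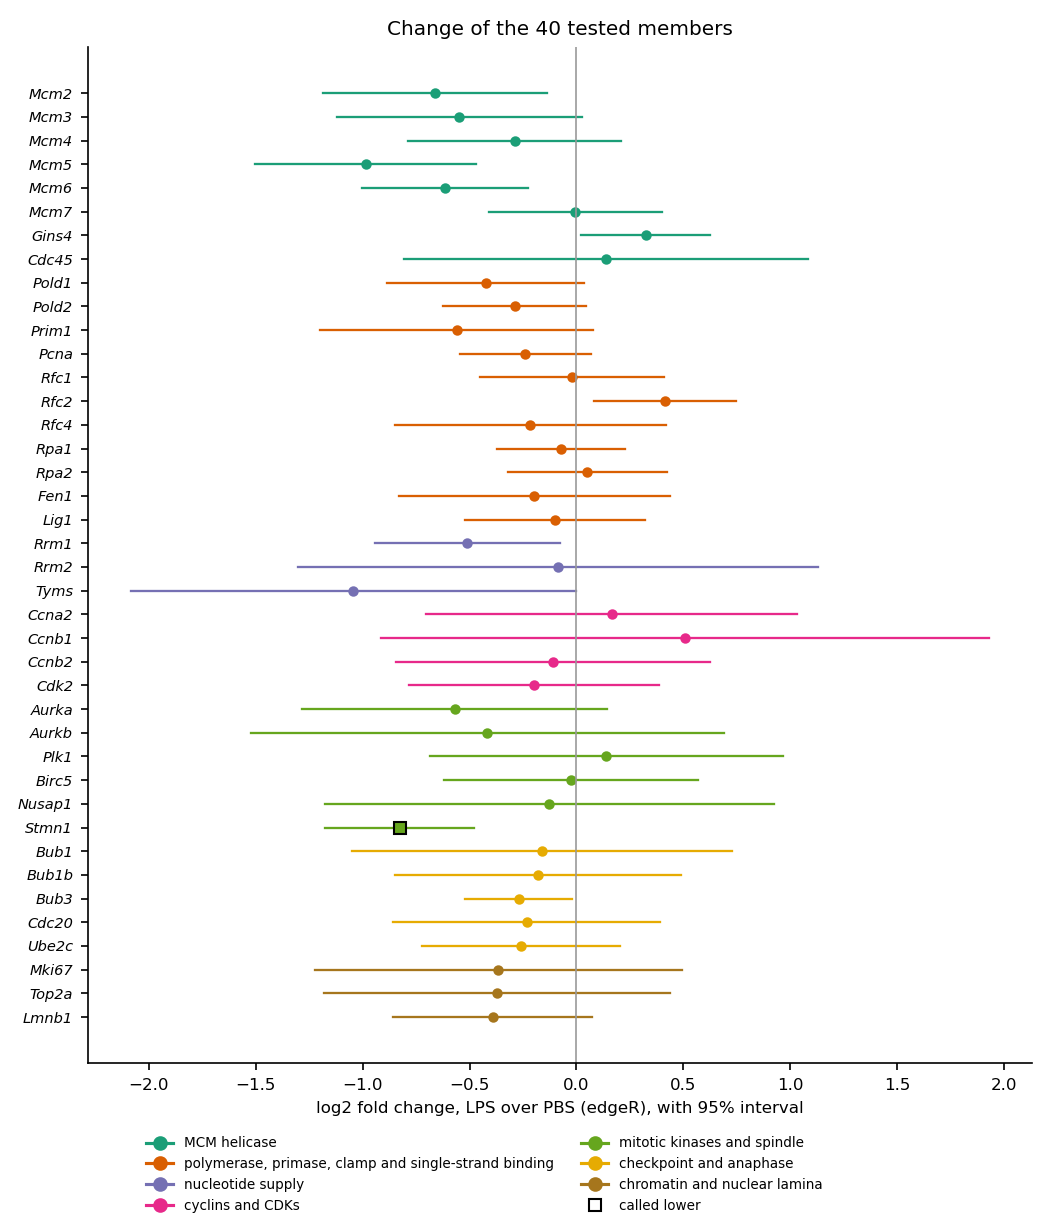
Log2 fold change of LPS over PBS mice (x axis, edgeR) for each of the 40 tested members (y axis, coloured by role), with 95% intervals as lines. The point lies below 0 for 33 members and the interval includes 0 for 31, and the square marks Stmn1, the member called lower.

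Stmn1 (chr4:134468320-134473843) encodes stathmin, which destabilizes microtubules and is phosphorylated as the mitotic spindle forms. Its level in PBS libraries s1, s2, s6, s11 and s16 was 86.6, 98.6, 126, 119 and 113 CPM, and in LPS libraries s4, s14 and s18 it was 63.9, 51.4 and 67.6 CPM. The groups did not overlap, and the lowest PBS library was s1. The mean of 108.6 ± 15.9 CPM (SD, n = 5) in PBS and 61.0 ± 8.47 (SD, n = 3) in LPS mice gave a log2 fold change of −0.83 (SE 0.16, 95% interval −1.18 to −0.48, edgeR adjusted p = 0.0247). It was thus 1.77-fold lower in LPS mice. DESeq2 and limma-voom gave adjusted p of 0.000732 and 0.0265. The call was lost without PBS library s11 (edgeR adjusted p = 0.0732) or without any of the LPS libraries s4, s14 and s18 (0.104, 0.125 and 0.0802), with log2 fold changes of −0.92 to −0.72. It was also lost without s6, s11 and s16 together (log2 fold change −0.59, edgeR adjusted p = 0.095).

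**Figure D2:**
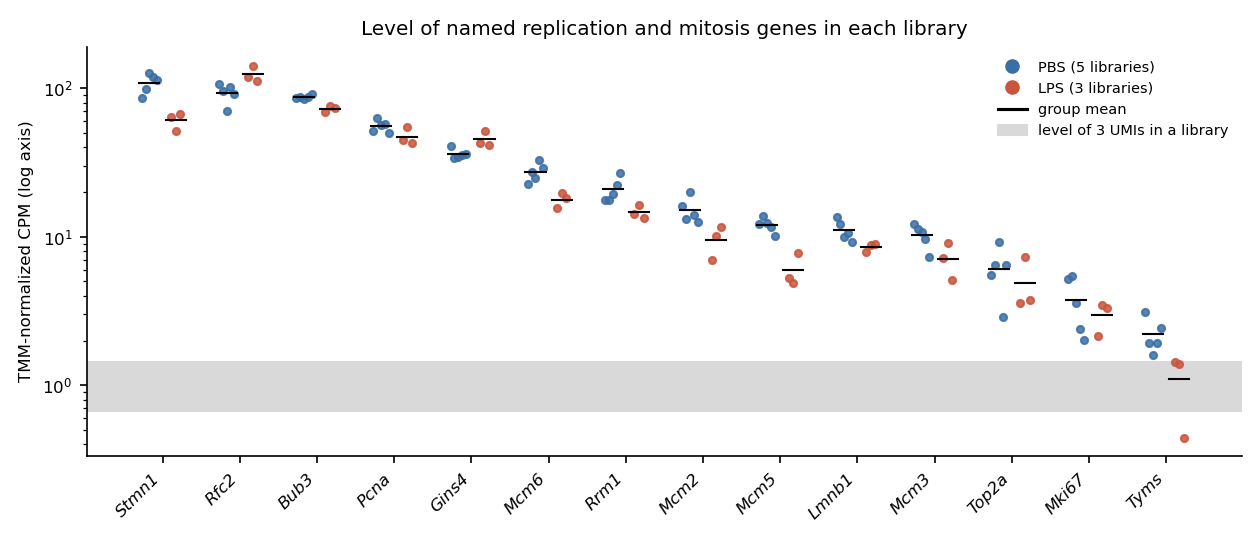
TMM-normalized CPM (y axis, log scale) of the 14 members described in full (x axis) in each PBS and LPS library, with the group mean as a bar and the level of 3 UMIs in grey. The Stmn1 points of the LPS libraries (51.4 to 67.6 CPM) lie below all PBS points (86.6 to 126 CPM), and the Tyms points reach the level of 3 UMIs, with s18 below it at 0.445 CPM.

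The 6 MCM subunits of the hexamer were all at negative log2 fold changes, from −0.99 for Mcm5 to −0.005 for Mcm7, and differences between subunits were not tested. Mcm5 (chr8:75109468-75128439), whose subunit closes the ring against Mcm2, stood at 12.2, 13.9, 12.4, 11.6 and 10.1 CPM in s1, s2, s6, s11 and s16 and at 5.28, 4.90 and 7.78 CPM in s4, s14 and s18. The groups did not overlap, and the means were 12.0 ± 1.36 (SD, n = 5) and 5.99 ± 1.56 (SD, n = 3) CPM. The log2 fold change was −0.99 (SE 0.24, 95% interval −1.50 to −0.47), which missed the edgeR threshold (adjusted p = 0.0584) and passed that of DESeq2 (adjusted p = 0.0338). These values rest on 229 UMIs in all, from 14 in s14 to 43 in s2.

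Mcm6 (chr1:128331575-128359705), another subunit of the ring, stood at 22.6, 27.4, 24.7, 32.8 and 29.1 CPM in s1, s2, s6, s11 and s16 and at 15.6, 19.6 and 18.2 CPM in s4, s14 and s18. The groups did not overlap, and the log2 fold change was −0.62 (SE 0.18, edgeR adjusted p = 0.104). Mcm2 (chr6:88883474-88898780), the subunit that also holds histones H3 and H4, stood at 16, 13.2, 19.9, 14 and 12.5 CPM in the PBS and 6.96, 10.1 and 11.6 CPM in the LPS libraries in the same order. Its groups did not overlap either, with a gap of less than 1 CPM between s16 and s18 and a log2 fold change of −0.66 (SE 0.24, edgeR adjusted p = 0.174). Mcm3 (chr1:20802966-20820312), which sits next to Mcm5 in the ring, ranged from 7.27 to 12.2 CPM in PBS and stood at 7.20, 9.09 and 5.11 CPM in s4, s14 and s18. Here the groups overlapped, and the log2 fold change was −0.55 (SE 0.26, edgeR adjusted p = 0.296). Mcm4, which carries the inhibitory tail released by the Cdc7 kinase in yeast, had a log2 fold change of −0.29 (95% interval −0.79 to 0.21).

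Mcm7 had nearly the same mean in both groups, 33.6 ± 6.58 CPM (SD, n = 5) in PBS and 33.5 ± 3.09 (SD, n = 3) in LPS mice. The log2 fold change was −0.005 (95% interval −0.41 to 0.40), and its sign changed in 8 of the alternative settings. Mcm2 to Mcm6 stayed negative in all 17 alternative fits. Summed over Mcm2 to Mcm7, the level was 101, 120, 114, 119 and 110 CPM in s1, s2, s6, s11 and s16 and 78.3, 92.3 and 86.9 CPM in s4, s14 and s18. The Mcm7 share of the UMIs of the 6 genes was 29.6 ± 4.33% (SD, n = 5) in PBS, from 22.1% in s1 to 33.1% in s6, and 39.1 ± 1.93% (SD, n = 3) in LPS mice, from 36.8 to 40.2%. The Mcm5 share was 10.7 ± 1.2% in PBS and 7.0 ± 1.84% in LPS mice. The 3′ end of Mcm7 overlaps Cops6 on the other strand and the gene hosts Mir25, Mir93 and Mir106b. The sources used here do not state whether the counting used strand, so that reads of Mcm7 and Cops6 may not be separated.

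**Figure D3:**
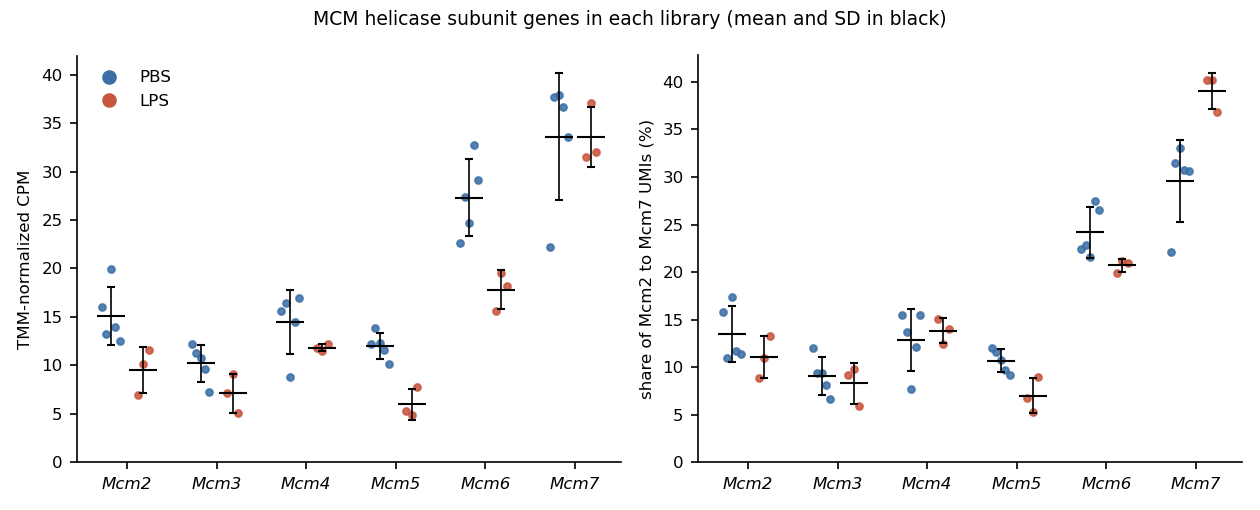
Level of the MCM helicase genes in each library (points), as TMM-normalized CPM (left y axis) and as a share of all Mcm2 to Mcm7 UMIs (right y axis), with mean and SD in black. The Mcm5 points separate by group in both panels, and the Mcm7 share lies at 22.1 to 33.1% in PBS and 36.8 to 40.2% in LPS libraries.

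MCM unwinds DNA together with Cdc45 and the GINS complex. Gins4 (chr8:23226610-23237668), a GINS subunit, stood at 40.7, 33.8, 34.7, 35.7 and 36.0 CPM in s1, s2, s6, s11 and s16 and at 43.0, 51.8 and 41.6 CPM in s4, s14 and s18. All LPS libraries lay above all PBS libraries, by less than 1 CPM between s1 and s18. The log2 fold change of 0.32 (SE 0.14, edgeR adjusted p = 0.24) did not pass. The other GINS subunits, Gins1, Gins2 and Gins3, which are not members, had log2 fold changes of −0.63, −0.43 and −0.77 on 56, 102 and 30 UMIs, with intervals that include 0. Cdc45, the helicase activator, had a log2 fold change of 0.14 (95% interval −0.80 to 1.08), with PBS values from 0.964 to 6.61 CPM.

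Genes of the replication fork had overlapping sums, at 325 ± 16.6 CPM for PBS (SD, n = 5) and 328 ± 28.8 CPM for LPS mice (SD, n = 3). These sums include Rfc2, the gene of highest level in the group, with a mean of 93.1 CPM in PBS and 124 CPM in LPS mice. Of the tested members, 9 of 11 were negative with a median log2 fold change of −0.20, so the similar sums do not describe each gene. Rfc2 (chr5:134582690-134598328), a subunit of the clamp loader that opens PCNA, stood at 106, 95.7, 70.5, 102 and 91.3 CPM in s1, s2, s6, s11 and s16 and at 120, 142 and 111 CPM in s4, s14 and s18. It was the other member with all LPS libraries above all PBS libraries, at a log2 fold change of 0.42 (SE 0.15, edgeR adjusted p = 0.178). Its 3′ end overlaps Lat2, a gene of haematopoietic cells, on the other strand. The loader subunits Rfc1 and Rfc4 had log2 fold changes of −0.02 and −0.22, and Rfc3 and Rfc5, from the list of other replication genes, −0.50 and −0.24. The 3′ end of Rfc4 overlaps Eif4a2 on the other strand.

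Pcna (chr2:132249286-132253180), the sliding clamp, stood at 51.8, 62.9, 56.2, 57.9 and 49.7 CPM in s1, s2, s6, s11 and s16 and at 44.9, 54.6 and 42.5 CPM in s4, s14 and s18. LPS library s14 lay within the PBS range, and the log2 fold change was −0.24 (SE 0.14, 95% interval −0.55 to 0.07, edgeR adjusted p = 0.393). The annotation names the pseudogenes Pcna-ps1 and Pcna-ps2. Pold1 and Pold2, the catalytic and a small subunit of polymerase delta, had log2 fold changes of −0.43 and −0.29, and Prim1, the primase that lays down RNA primers, −0.56. The Pold2 groups did not overlap, at 27.1 to 34.2 CPM in PBS and 21.7 to 26.9 CPM in LPS libraries, although its test did not pass (edgeR adjusted p = 0.347). The single-strand binding genes Rpa1 and Rpa2 and the Okazaki fragment enzymes Fen1 and Lig1 ranged from −0.20 to 0.05, and the 3′ end of Fen1 overlaps the antisense gene Gm10143. The untested Pole ranged from 0.482 to 2.58 CPM in PBS libraries and reached 0.72 CPM in LPS libraries, with 0 UMIs in s14, where 3 UMIs are 1.05 CPM.

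Genes of nucleotide supply were negative in 3 of 3, although the sign of Rrm2 changed in 5 alternatives (−0.49 to 0.45). Rrm1 (chr7:102441695-102469771), the large subunit of ribonucleotide reductase, stood at 17.7, 17.7, 19.5, 22.2 and 27.1 CPM in s1, s2, s6, s11 and s16 and at 14.2, 16.4 and 13.3 CPM in s4, s14 and s18. The groups did not overlap, and the log2 fold change was −0.51 (SE 0.20, edgeR adjusted p = 0.201). Tyms (chr5:30038546-30073645), thymidylate synthase, stood at 3.13, 1.93, 1.59, 1.93 and 2.42 CPM in PBS and at 1.44, 1.40 and 0.445 CPM in LPS libraries in the same order, which is 2 to 9 UMIs a library. Its log2 fold change of −1.04 had a wide error (SE 0.48, 95% interval −2.08 to −0.001, edgeR adjusted p = 0.277) and became −0.63 without s18, where it had 2 UMIs. The S phase subunit Rrm2, at 49 UMIs in all, had an interval of −1.30 to 1.13. Summed over the 3 genes the level was 25.1 ± 4.05 CPM (SD, n = 5) in PBS and 17.8 ± 2.77 CPM (SD, n = 3) in LPS mice.

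**Figure D4:**
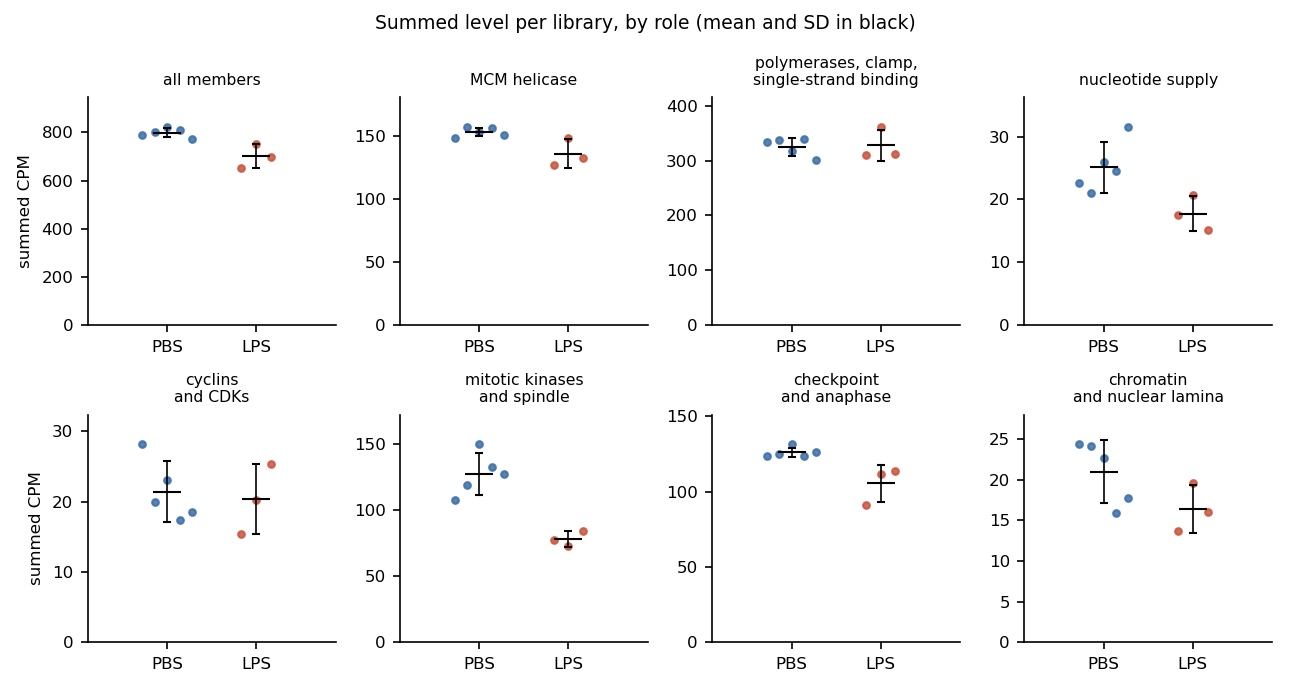
Summed TMM-normalized CPM (y axis, from 0) of all members and of each role group in each PBS and LPS library (points), with mean and SD in black. Mitotic kinases and spindle genes separate by group, at 108 to 149 CPM in PBS and 72.4 to 84.2 CPM in LPS libraries, which Stmn1 carries, while the polymerase group and the cyclins and CDKs overlap.

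Apart from Stmn1 no mitotic member passed the test. The summed mitotic kinases and spindle genes stood at 127 ± 15.5 CPM in the PBS group (SD, n = 5) and 78.0 ± 5.95 CPM in the LPS group (SD, n = 3), but without Stmn1 the other 5 genes summed to 18.4 ± 4.6 and 17 ± 3.78 CPM. Aurka, the spindle pole kinase, had all LPS libraries (2.00 to 2.40 CPM) below all PBS libraries (2.58 to 3.86 CPM) at a log2 fold change of −0.57 (95% interval −1.28 to 0.14). Aurkb, the centromere kinase, ranged in PBS from 0.964 CPM in s11 to 6.12 CPM in s2, which spans its LPS range of 2.16 to 3.85 CPM. Plk1, the Polo kinase, Birc5, the survivin subunit of the Aurkb complex, and Nusap1, a microtubule binder, had log2 fold changes of 0.14, −0.02 and −0.13 with intervals that include 0.

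The cyclins were of mixed sign and none passed the test. Ccna2 and Ccnb1 had log2 fold changes of 0.16 and 0.51 and Ccnb2 and Cdk2 of −0.11 and −0.20, all with intervals that include 0. Ccnb1 rests on 32 UMIs, its interval ran from −0.91 to 1.93, and DESeq2 gave it no adjusted p. The 3′ end of Ccna2 overlaps Exosc9 on the other strand. The 4 genes, Cdk2 included, summed to 21.4 ± 4.33 CPM (SD, n = 5) in PBS and 20.3 ± 4.98 CPM (SD, n = 3) in LPS mice.

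The checkpoint and anaphase genes were negative in 5 of 5, with log2 fold changes of −0.27 to −0.16. The sign changed in some alternatives for Bub1 (up to 0.05), Bub1b and Cdc20, and without LPS library s4 Bub1b stood at 0.12 and Cdc20 at 0.05. Bub3 (chr7:131560367-131571895), which brings the checkpoint kinases to kinetochores, stood at 85.5, 87.7, 85.3, 86.8 and 92.1 CPM in s1, s2, s6, s11 and s16 and at 68.7, 75.5 and 73.3 CPM in s4, s14 and s18. The groups did not overlap and the PBS spread was small, but the log2 fold change of −0.27 (SE 0.11, edgeR adjusted p = 0.235) did not pass. Its 3′ end overlaps Fgfr2 on the other strand. The kinase genes Bub1 and Bub1b, the anaphase activator Cdc20 and the ubiquitin-conjugating enzyme Ube2c had overlapping groups. The 3′ ends of Cdc20 and Ube2c overlap Elovl1 and Tnnc2 on the other strand.

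Mki67 (chr7:135689784-135716450), which encodes the Ki-67 antigen of cycling cells, stood at 5.22, 5.48, 3.59, 2.41 and 2.02 CPM in s1, s2, s6, s11 and s16 and at 2.16, 3.50 and 3.33 CPM in s4, s14 and s18. The LPS libraries lay within the PBS range, and the highest libraries were the PBS pair s1 and s2. The log2 fold change of −0.37 (SE 0.39, 95% interval −1.22 to 0.49, edgeR adjusted p = 0.676) became 0.14 without s1 and s2, and the interval of the fold ran from 0.428 to 1.41 of the PBS level, on 85 UMIs in all. Top2a (chr11:98992947-99024199), the topoisomerase that untangles sister chromatids, stood at 5.56, 6.45, 9.16, 2.89 and 6.47 CPM in PBS and at 3.6, 7.34 and 3.78 CPM in LPS libraries in the same order. These groups overlapped as well, at a log2 fold change of −0.37 (SE 0.37, edgeR adjusted p = 0.648). Lmnb1 (chr18:56707813-56753424), the lamin of the nuclear envelope, stood at 13.6, 12.2, 9.96, 10.6 and 9.29 CPM in PBS and at 7.93, 8.74 and 8.89 CPM in LPS libraries. Its groups did not overlap, with a log2 fold change of −0.39 (SE 0.21, 95% interval −0.86 to 0.07, edgeR adjusted p = 0.357).

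Over all 41 members in the table the summed level was 788, 803, 822, 809 and 772 CPM in s1, s2, s6, s11 and s16 and 652, 754 and 698 CPM in s4, s14 and s18. The LPS mean was 0.878 of the PBS mean on this scale, and 0.929 as a share of all UMIs. The groups did not overlap in CPM but did as a share. All LPS libraries (0.0692 to 0.0787%) lay inside the PBS range of 0.0675% in s16 to 0.0862% in s2. Without Stmn1 the CPM sums overlapped too, with LPS library s14 at 703 CPM inside the PBS range of 659 to 705 CPM, and the ratio was 0.928. The mean shares without Stmn1 were 0.0678% in PBS and 0.0665% in LPS mice. Across the settings, 27 to 34 members were negative (69.2 to 85%), against 43.1 to 53.5% of all genes.

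Other genes of the same pathways gave no edgeR call in 3 lists, where 1.46% of all genes were called higher and 0.569% lower. Of 34 tested other replication genes (44 listed), 26 were negative (76.5%, against 52.7% of all genes) and the median log2 fold change was −0.22. The smallest p belonged to Tk1, the salvage thymidine kinase (−0.78, edgeR adjusted p = 0.166), Rfc3, a clamp loader subunit (−0.50), and Asf1a, a histone chaperone (−1.09, at 42 UMIs). Of 48 tested other mitosis genes (62 listed), 31 were negative (64.6%) with a median of −0.06, close to that of all genes. Here Prc1, the midzone microtubule bundler, lay lower (−0.97, edgeR adjusted p = 0.0859) and Nek2, a centrosome kinase, lay higher at 26.7, 40.9 and 28.5 CPM in s4, s14 and s18 against 7.57 to 23.6 CPM in PBS (0.97, edgeR adjusted p = 0.104). DESeq2 gave Nek2 an adjusted p of 0.0407, and Anapc2, the cullin of the anaphase-promoting complex, had a log2 fold change of 0.37. Of 25 tested G1 to S regulators (30 listed), 12 were negative (48%) with a median of 0.05. E2f2 and Cks1b, a binder of cyclin-dependent kinases, lay lower in every LPS library (−0.57 and −0.80, edgeR adjusted p = 0.0969 and 0.0988), and the checkpoint kinase Chek2 had a log2 fold change of 0.61. At an unadjusted edgeR p under 0.05, the other replication genes counted 0 higher and 2 lower, the other mitosis genes 2 and 2, and the G1 to S regulators 0 and 2. Over all genes, 10.4% lay higher and 7.64% lower at that p, so these counts do not set the lists apart. Limma-voom called 0 in each list. DESeq2 called 1 gene, Nek2, where it called 2.91% of all genes higher. No list was tested as a set, and these medians are descriptions.

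**Figure D5:**
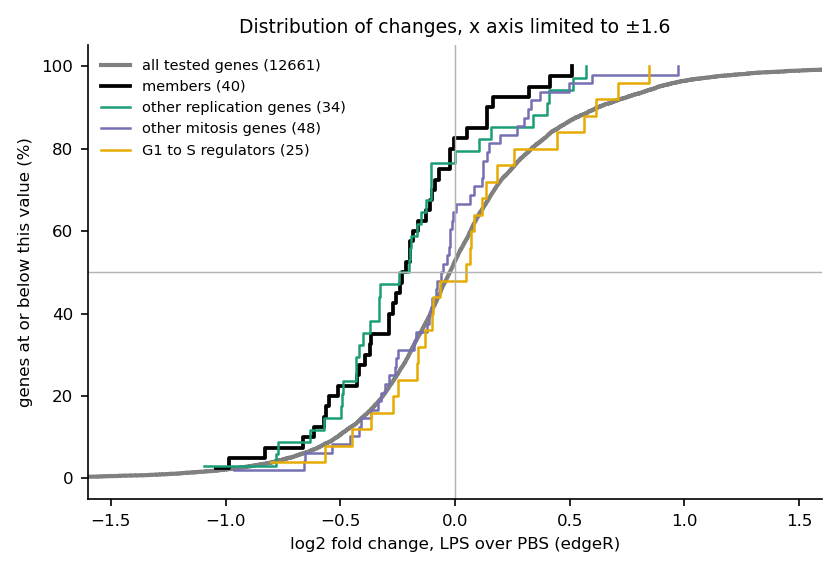
Cumulative share of genes (y axis, percent) at or below each log2 fold change of LPS over PBS (x axis, limited to 1.6 on either side) for all tested genes, the 40 members and 3 lists of other genes. The curves of the members and of the other replication genes cross 50% near −0.22, and those of the other mitosis genes (−0.06) and all genes (−0.02) near 0.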

How the data were processed

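RNA of sorted lung epithelium from 5 PBS and 3 LPS mice was counted by the authors with the User-friendly Transcriptome Analysis Pipeline. The deposited counts are UMIs of reads with a unique match at the 3′ end of RefSeq genes (mm10, NCBI annotation release 109). The aligner and the use of strand are not given in the sources used here. Columns of the table were placed in groups by name. The 16 further columns of per-sample values and the deposited DESeq2 fold changes and p-values were not used. The labels call the samples biological replicates, and the group sizes limit what a test can call.

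Counts of genes with at least 30 UMIs over 8 libraries were normalized by TMM and tested on all 12661 genes with glmQLFit and glmQLFTest of edgeR 4.0.16 (R 4.3.3), with Benjamini-Hochberg adjusted p under 0.05 and fold above 1.25, no covariates. DESeq2 1.42.0, limma 3.58.1 (voom), other size factors and filters, thinning to the smallest library and leaving out libraries were alternatives. SE is the log2 fold change over the root of F, and 95% intervals use the same test. The scripts were tested on simulated data. Described in full are members called by edgeR or DESeq2, the 10 smallest edgeR p, and Mki67, Top2a, Cdk1, Pcna, Mcm2 and Lmnb1; of each list of other genes, called genes and the 3 smallest p. The members and lists were chosen with earlier results of these data known. Gene coordinates and promoter sequences are from RefSeq (GRCm38.p6), and overlaps from GENCODE. Figures were drawn with matplotlib.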

Additional observations from a re-analysis of the deposited data

Results flagged for a closer look

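Each of 52 sets of values over the 5 PBS libraries was screened for a library far from the others (gap to the nearest value over the whole range above 0.71), and 2 passed, where chance passes about 1 in 20. The Mcm7 level of PBS library s1 was 22.3 CPM, against 33.5 to 37.9 CPM in the other PBS libraries. The Ccnb1 level of PBS library s6 was 3.19 CPM, against 0.404 to 0.695 CPM in the others.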

How the results depend on the processing

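No paired analysis was possible because the columns of the table carry no replicate number of the labels. Nor do the sources used here describe any pairing of PBS with LPS mice. No member was called higher in any of 18 alternatives. The members called lower were 2 with DESeq2 and 2 after thinning to the smallest library (Stmn1 and Mcm5), 0 without PBS libraries s6, s11 and s16, and 0 to 1 when single libraries were left out. The members' median log2 fold change ran from −0.32 to −0.11 when single libraries were left out, the latter without LPS library s4. Genes called higher were 368 with DESeq2 and 528 without s1 and s2, and 47 to 259 when single libraries were left out (71, 48, 78 and 47 without s11, s4, s14 and s18). Genes called lower were 190 with DESeq2, 42 with library totals only, 381 without s1 and s2, 47 without s6, s11 and s16, and 12 to 95 when single libraries were left out (20, 12, 20 and 12 without s11, s4, s14 and s18). The setting without a fold threshold, among the 18 alternatives, reuses the main fit, so its fold changes and p-values are the same by construction. Of 249 alternative values of the 14 named members, 241 kept direction and side of the threshold, those of that setting included. Of the rest, 5 (Stmn1) no longer passed, 2 (Mcm5) passed, and 1 changed sign, Mki67 at 0.14 without s1 and s2. The cause was not tested. The intervals of Tyms, Ccnb1, Rrm2 and Mki67, at 32 to 85 UMIs in all, span more than 1 log2 unit. Many other members have intervals as wide as that, also at higher counts. Among them are Aurkb (−1.52 to 0.69, 85 UMIs), Mcm5 (−1.50 to −0.47, 229 UMIs) and Cdc20 (−0.86 to 0.39, 310 UMIs). After thinning to the smallest library the SE of Mki67 was 0.389 (0.393 at full depth). The SE of the other named members was larger after thinning. That of Tyms was 0.652 (0.477 at full depth), of Mcm2 0.332 (0.240) and of Mcm5 0.273 (0.236).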
